A study of Mus musculus with 6 samples.

Results

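The transcripts of Mta3, Dpy30 and Eef1a1 were read on expression arrays of mouse embryonic stem cells (mESCs) whose only SOX2 was either wild type or the S248A mutant, in which a serine that carries O-GlcNAc is replaced by alanine. These 3 genes, of 737 gene names that could be placed on 23949 probes, were the ones that stood both in the study's list of genes with an altered transcript and in its list of proteins that co-purified with FLAG-tagged SOX2. They were therefore selected on measured values of the contrast described here: the fold change and the p of the methods' t-test, paired by replicate number, on the deposited values. Their differences between the lines are a description, and no p is given for them.

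Both lines were derived from 2TS22C mESCs, which lack endogenous Sox2 and live on an untagged SOX2 transgene that doxycycline shuts off. Into these cells a 3xFLAG-tagged SOX2 cDNA under the CAG promoter was introduced, followed by an IRES and puromycin resistance, either as wild type (fSOX2-Tg) or as S248A (fS248A-Tg). Colonies that survived puromycin were expanded, and both lines were kept in serum medium with leukemia inhibitory factor and 1 μg/ml doxycycline, so the controls also lack endogenous Sox2 and carry the drug. The comparison is of one transgenic line with another, and a difference that arose while the lines were derived cannot be told apart from one due to the mutation. RNA came from 3 cultures of each line, described as biological triplicates, and each culture was hybridised to a single-color Agilent array. In such bulk RNA, fewer cells that express a gene and less RNA per cell cannot be told apart.

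Mta3 encodes a subunit of the NuRD complex, which couples nucleosome remodelling with histone deacetylation and is needed for mESCs to leave self-renewal properly. Dpy30 encodes a small core subunit shared by the SET1/MLL complexes, which methylate histone H3 at lysine 4 around active promoters. Eef1a1 encodes the translation elongation factor that delivers aminoacyl-tRNA to the ribosome, and its mRNA is among the most abundant in most cells. In the study's list of SOX2 partners, Mta3 and Dpy30 were given as recovered more with S248A and Eef1a1 as recovered more with wild type SOX2, and those are protein measurements in which the arrays had no part.

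Each gene was represented by 1 probe, printed once per array. Its name rests on a key: the row of the published gene list whose p and fold the deposited values gave back. The deviation of the best probe was 8.33e-05% for Mta3, 0.000205% for Dpy30 and 0.000109% for Eef1a1, under a tolerance of 0.01%, and the next best probe was off by 2.02%, 0.649% and 1.32%, respectively. The RefSeq annotation of GRCm38.p6 places Mta3 at chr17:83706163-83823715, Dpy30 at chr17:74299474-74323944 and Eef1a1 at chr9:78478453-78481724. The part of each transcript that the probe reads is not known, since no probe sequence was used here. Eef1a1 has a close paralog, Eef1a2, and many processed copies in the genome, so its probe may also read related sequence.

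The DNA just before the annotated transcription start sites is shown because SOX2 acts through promoters and enhancers, although the arrays measured transcripts and no binding at these windows. RefSeq gave 4 start windows for Dpy30 and 1 for Eef1a1, and Mta3 was not searched here. Of the 4 for Dpy30, the most distal and the next one are printed. Each is 250 bases, 5′ to 3′ on the minus strand, and capitals mark the SOX core letters AACAAT, read as ATTGTT from the opposite strand:
Dpy30, chr17:74323945-74324194: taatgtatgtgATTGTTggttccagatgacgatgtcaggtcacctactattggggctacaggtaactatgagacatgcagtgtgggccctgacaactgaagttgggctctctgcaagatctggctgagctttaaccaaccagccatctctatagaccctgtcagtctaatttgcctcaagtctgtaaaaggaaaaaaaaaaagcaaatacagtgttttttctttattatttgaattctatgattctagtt
Dpy30, chr17:74316434-74316683: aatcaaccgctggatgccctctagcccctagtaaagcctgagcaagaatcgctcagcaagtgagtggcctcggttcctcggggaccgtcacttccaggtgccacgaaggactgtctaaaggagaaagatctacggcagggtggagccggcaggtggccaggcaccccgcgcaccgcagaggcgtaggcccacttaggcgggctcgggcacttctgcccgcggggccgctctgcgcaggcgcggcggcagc
Eef1a1, chr9:78481725-78481974: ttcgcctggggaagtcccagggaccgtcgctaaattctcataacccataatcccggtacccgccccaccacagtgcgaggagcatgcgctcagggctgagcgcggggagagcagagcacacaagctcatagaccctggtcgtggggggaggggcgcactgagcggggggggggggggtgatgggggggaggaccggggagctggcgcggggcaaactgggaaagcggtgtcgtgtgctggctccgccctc

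The single SOX core match lay 239 bases before the most distal Dpy30 start, and the other 3 Dpy30 windows and the Eef1a1 window held none. Those 3 Dpy30 windows overlap one another, so they are not separate stretches of DNA. Of all 32851 windows of this length, 9.42% held the SOX core on either strand and 1.60% held the octamer ATGCAAAT, which none of the Dpy30 and Eef1a1 windows held. The windows differed in base composition: G and C made up 40% of the distal Dpy30 window, 66% to 71.6% of the other Dpy30 windows and 68% of the Eef1a1 window.

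The probes of all 3 genes were well above background on all 6 arrays, with no outlier or saturated spot. Mta3 had a spot intensity of 3847 to 10050 units, which was 26.7 to 159 times the brightest negative control sequence of its array. The intensity of Dpy30 was 292 to 1224 units, or 2.68 to 19.0 times that control. For Eef1a1 it was 328 to 1185 units, or 2.45 to 8.23 times that control. The scanner software put the error of each of these spots between 10.0% and 10.4% of its signal. Eef1a1 was thus read by a probe of modest brightness even though its mRNA is usually abundant, and because a probe's brightness depends on its sequence, levels are compared here between arrays and never between genes.

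A pair of scales is used below. The first is the log2 of the spot intensity over that array's 75th percentile, and the second is the deposited log2 value. On the first scale 19766 probes could be tested, the median difference between lines (fS248A-Tg minus fSOX2-Tg) was -0.10, and it was 0.01 after quantile normalization, a shift of 0.11. A probe was called when it differed by at least 1.5-fold with an unadjusted p under 0.05 in limma. In that fit 733 probes were called higher and 1105 lower in fS248A-Tg, against 944 and 812 after quantile normalization. No probe reached an adjusted p of 0.05 (the smallest was 0.487), 1838 had an unadjusted p under 0.05, and the methods' t-test on the deposited values put 1 probe past the adjusted threshold.

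One array stood apart from its line. Over 17133 probes above background on all arrays, the deposited values of fSOX2-Tg replicate 2 differed from the other fSOX2-Tg arrays with a mean SD of 0.768 and from the fS248A-Tg arrays with a mean SD of 0.568. In each of the other 5 arrays the SD to its own line was the smaller one, though in fS248A-Tg replicate 2 only just (0.621 against 0.631). Replicates 1 and 2 of both lines shared a slide, and replicate 3 of both lines was on another.

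Mta3 was higher in fS248A-Tg in each replicate number, but its groups overlapped on the first scale. Relative to the 75th percentile, the log2 level of Mta3 in fSOX2-Tg replicates 1, 2 and 3 was 3.66, 3.99 and 4.58. In fS248A-Tg replicates 1, 2 and 3 it was 4.31, 4.99 and 5.05. The highest fSOX2-Tg array, replicate 3, lay above the lowest fS248A-Tg array, replicate 1. The means were 4.08 ± 0.46 (SD, n = 3) in fSOX2-Tg and 4.79 ± 0.41 (SD, n = 3) in fS248A-Tg, a log2 difference of 0.71 with a moderated SE of 0.33, or 1.63-fold. With that SE Mta3 did not meet the call.

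On the deposited scale the Mta3 groups no longer overlapped. The deposited log2 value was 11.97, 12.45 and 12.70 in fSOX2-Tg replicates 1 to 3 and 12.83, 13.30 and 13.26 in fS248A-Tg replicates 1 to 3. Only 0.12 log2 units separated the highest fSOX2-Tg array from the lowest fS248A-Tg array, and the mean difference was 0.75, or 1.69-fold. Mta3 then met the call, as it did after quantile normalization (0.75) and after normexp background correction (0.74). On the first scale it met the call under the methods' t-test (0.71) but not in limma. Whether Mta3 met the call thus turned on the scale and on the test, and its direction did not.

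The size of the Mta3 difference varied between replicate numbers. On the first scale it was 0.65 in replicate 1, 1.00 in replicate 2 and 0.47 in replicate 3. The slide with replicates 1 and 2 gave a mean of 0.82 and the other slide gave 0.47. Without fSOX2-Tg replicate 2 the difference was 0.66, still short of the call. It met the call without fSOX2-Tg replicate 3 (0.96) and without fS248A-Tg replicate 1 (0.94), the arrays that made the groups overlap.

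The Mta3 spot lay at the edge of the array, in the first column. The 27 spots around it that were above background on all arrays, up to 5 rows and columns away, had a median log2 difference of -0.36, opposite to that of Mta3. For Dpy30 the 70 such neighbours had a median of -0.20, and for Eef1a1 the 56 neighbours had a median of 0.00058. A part of position on the array in the differences was not tested further.

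**Figure D1:**
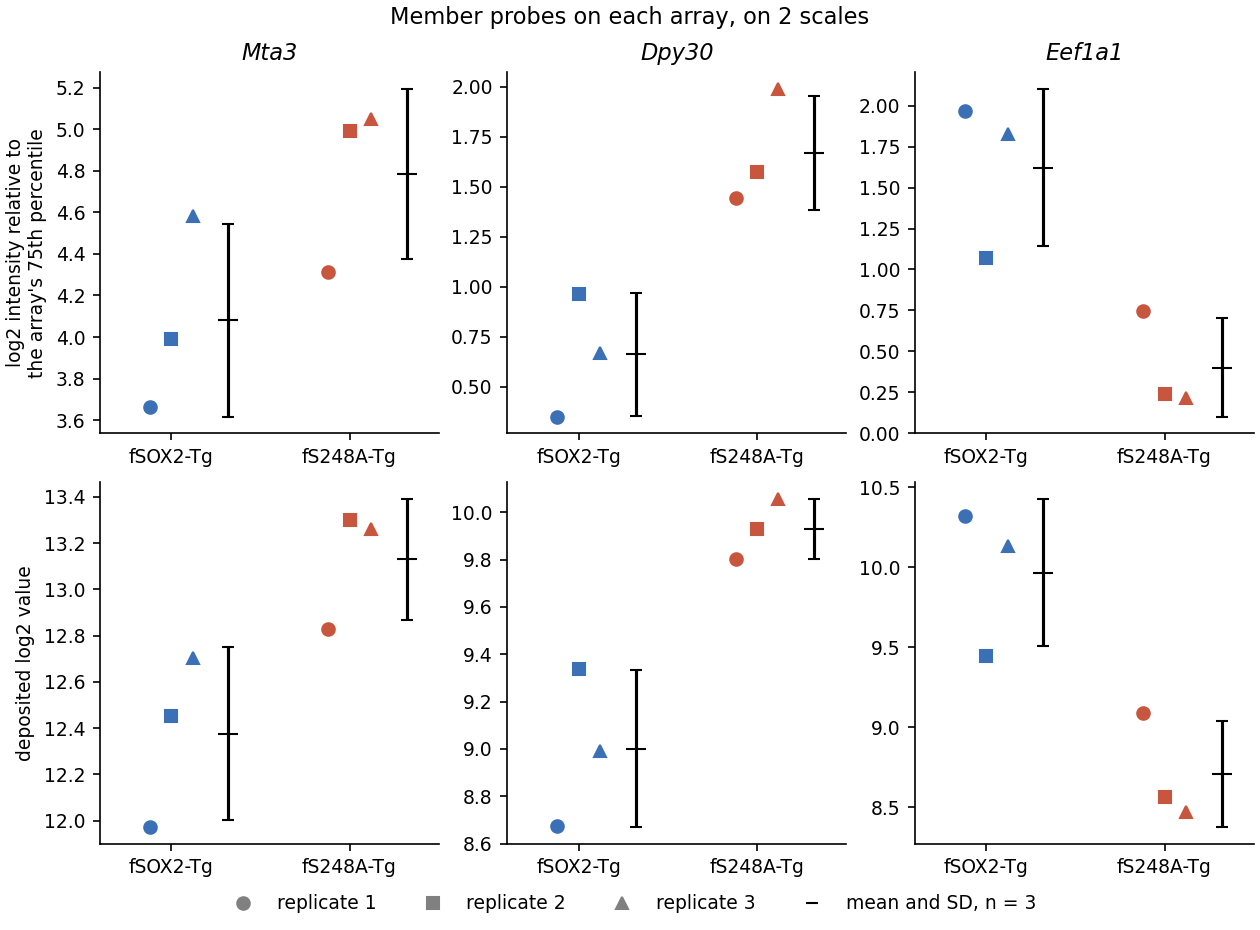
Log2 level of the Mta3, Dpy30 and Eef1a1 probes on each of the 6 arrays, relative to the array's 75th percentile (top) and as deposited (bottom), by line; symbols mark the replicate number, and the black bars give the mean and SD of 3 arrays. The Mta3 groups overlap in the top row and are 0.12 apart in the bottom row, and those of Dpy30 and Eef1a1 are apart in both.

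Dpy30 was higher in fS248A-Tg, with no overlap on either scale. Relative to the 75th percentile, its log2 level was 0.35, 0.96 and 0.67 in fSOX2-Tg replicates 1 to 3. In fS248A-Tg replicates 1 to 3 it was 1.45, 1.57 and 1.99. Every fS248A-Tg array thus lay above every fSOX2-Tg array, with a gap of 0.48. The means were 0.66 ± 0.31 (SD, n = 3) and 1.67 ± 0.28 (SD, n = 3), a log2 difference of 1.01 with a moderated SE of 0.34, or 2.01-fold, and Dpy30 met the call.

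The deposited log2 value of Dpy30 was 8.67, 9.34 and 8.99 in fSOX2-Tg and 9.80, 9.93 and 10.06 in fS248A-Tg, replicates 1 to 3 in each case. The fS248A-Tg arrays were close together on this scale (SD 0.13) and the fSOX2-Tg arrays less so (SD 0.33). The difference was 0.93, or 1.90-fold. Among the fSOX2-Tg arrays, replicate 2 was the nearest to the fS248A-Tg level of Dpy30 on both scales.

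Between replicate numbers the Dpy30 difference on the first scale was 1.10, 0.61 and 1.32. It was 0.85 on the first slide and 1.32 on the second. Without fSOX2-Tg replicate 2 it grew to 1.16. Without fSOX2-Tg replicate 1, the array with the least Dpy30, it was 0.85 and no longer met the call, and leaving out replicate 1 or replicate 3 of both lines (0.96 and 0.85) also ended it.

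Eef1a1 was lower in fS248A-Tg, with no overlap on either scale and the largest difference of the 3 genes in the limma fit. Relative to the 75th percentile, its log2 level was 1.97, 1.07 and 1.83 in fSOX2-Tg replicates 1 to 3. In fS248A-Tg replicates 1 to 3 it was 0.75, 0.24 and 0.22. Every fS248A-Tg array lay below every fSOX2-Tg array, and the 0.32 gap was between fSOX2-Tg replicate 2 and fS248A-Tg replicate 1. The means were 1.62 ± 0.48 (SD, n = 3) and 0.40 ± 0.30 (SD, n = 3), a log2 difference of -1.22 with a moderated SE of 0.34. The level of Eef1a1 in fS248A-Tg was 0.429 times that in fSOX2-Tg, and Eef1a1 met the call.

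The deposited log2 value of Eef1a1 was 10.32, 9.44 and 10.13 in fSOX2-Tg replicates 1 to 3 and 9.09, 8.56 and 8.47 in fS248A-Tg replicates 1 to 3. The order of the arrays was the same as on the first scale, and the difference was -1.26, or 2.39-fold higher in fSOX2-Tg. By replicate number the first scale gave -1.22, -0.83 and -1.62. The first slide gave -1.03 and the second -1.62.

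fSOX2-Tg replicate 2 also had the least Eef1a1 of its line, and without that array the difference was -1.50. Leaving out replicate 1 or replicate 3 of both lines gave -1.23 and -1.03, and neither then met the call. In Dpy30 and Eef1a1 alike, the array that stood apart over all probes lay closest to the other line, and in Mta3 it was the middle one of its line.

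**Figure D2:**
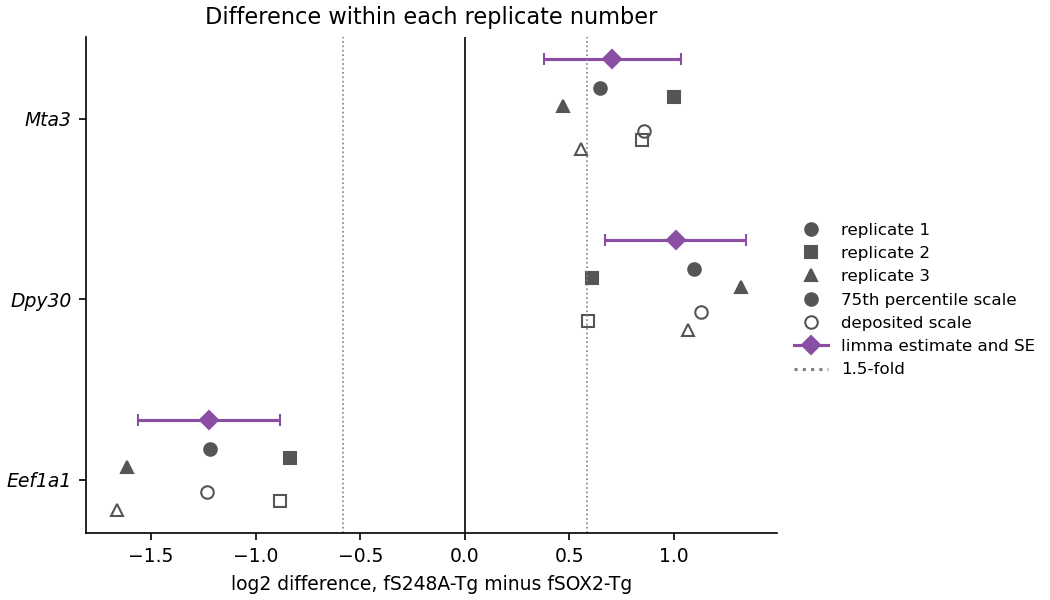
Log2 difference (fS248A-Tg minus fSOX2-Tg) of each gene within each replicate number, on the 75th percentile scale (filled) and the deposited scale (open), with the limma estimate and its SE as diamonds and 1.5-fold as dotted lines. All 3 replicate numbers lie on the same side of 0 for each gene, from 0.47 for Mta3 in replicate 3 to -1.66 for Eef1a1 in replicate 3. On the deposited scale the paired test that selected the genes requires a shared side.

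The differences can also be set against the shift of all probes. Relative to the median probe, the log2 difference was 0.80 for Mta3, 1.10 for Dpy30 and -1.13 for Eef1a1 on the first scale. After quantile normalization it was 0.74, 0.91 and -1.27, respectively. No member changed direction with the scale.

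As the members were chosen for this contrast, the counts of called members are a description beside the share of all probes. Of the 2 members that were higher in fS248A-Tg, 1 (Dpy30) met the call, and 3.71% of all probes tested were called higher. Eef1a1, the only member that was lower, met it too, and 5.59% of all probes were called lower. On the first scale Dpy30 lay wholly above fSOX2-Tg (4.65% of probes did) and Eef1a1 wholly below (7.97% did). On the deposited scale Mta3 and Dpy30 lay wholly above (6.54% did) and Eef1a1 wholly below (6.95% did).

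**Figure D3:**
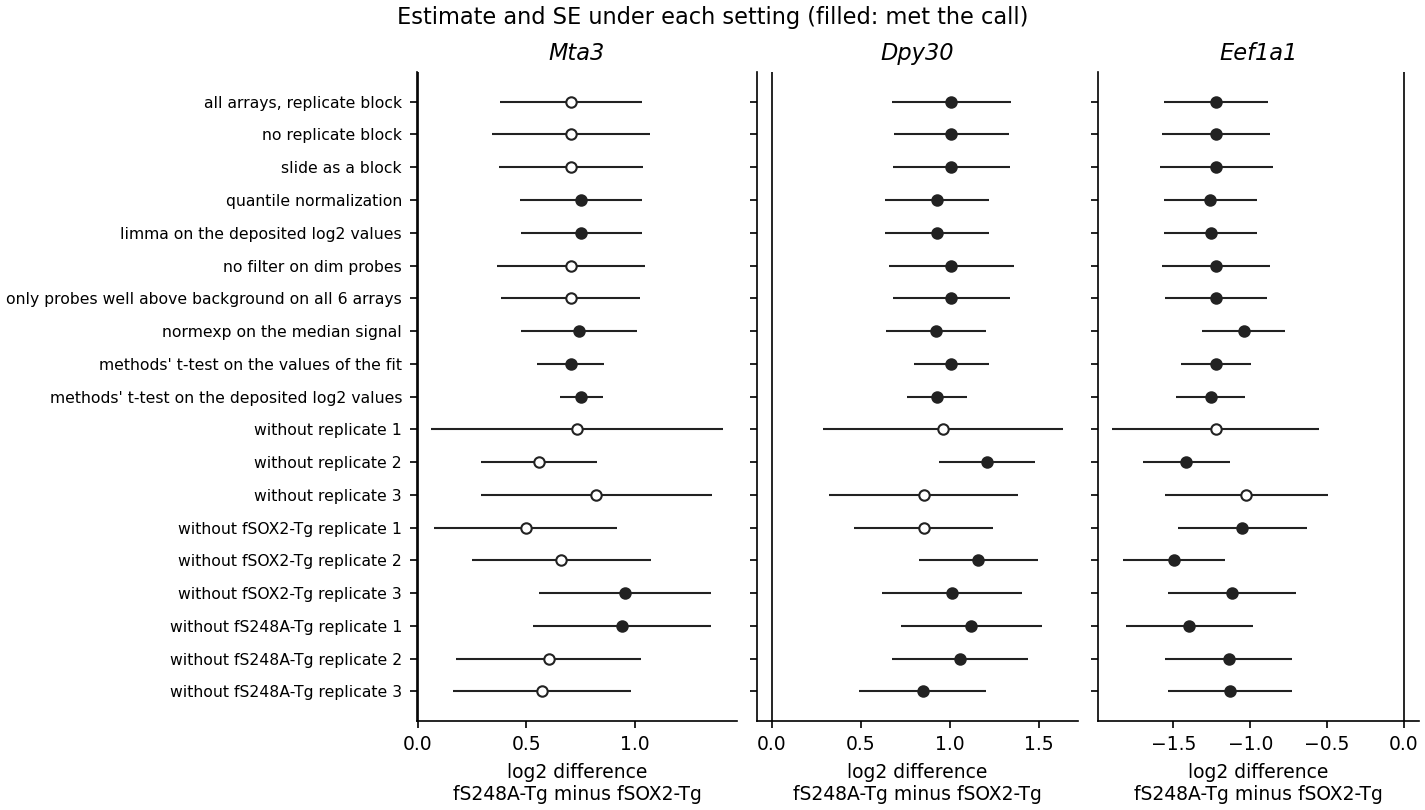
Log2 difference (fS248A-Tg minus fSOX2-Tg) with its SE for each gene under each of 19 settings, filled where the call of 1.5-fold with an unadjusted p under 0.05 was met; the vertical line marks 0 and the panels have different ranges. Mta3 met the call in 7 of the 18 settings other than the first, Dpy30 in 15 and Eef1a1 in 16, and none changed direction. The settings include the test that selected the members, the methods' t-test on the deposited values, which they met by construction. Every setting uses arrays on which the members were selected.

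The members were printed once per array, so their own spread between spots was not measured. For 15 other probes printed several times, the median SD of log2 intensity between spots of the same array was 0.041 to 0.085. The SD between cultures of the same line was 0.28 to 0.48 for the 3 members on the first scale. The SE values given above are moderated by limma toward the spread of all probes. From the 3 replicate differences of each gene alone, the SE was 0.16 for Mta3, 0.21 for Dpy30 and 0.23 for Eef1a1. Selection by a paired test favours genes whose replicate differences vary little, so these last SE values may be too small. All of the SE values cover the spread between cultures of the same line and not that between independently derived lines.

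Few relatives of the members carried a name. In the NuRD list Mta3 was the only 1 of 15 genes that was named, and in the SET1/MLL list Dpy30 was the only 1 of 20. Of 17 translation elongation factors 2 were named, Eef1a1 and Eef1b2, the latter a part of the exchange factor that recharges EEF1A1 with GTP. All names among these came from the same key, so they too were chosen on this contrast, and the unnamed genes of the lists were not analysed here.

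Eef1b2 differed in the direction opposite to Eef1a1. Its log2 level relative to the 75th percentile was between -2.10 and -1.87 in fSOX2-Tg and between -1.45 and -0.80 in fS248A-Tg, without overlap. The difference was 0.78 with a moderated SE of 0.33, and Eef1b2 met the call. Of the cytoplasmic ribosomal proteins, 2 were named: Rpl34 differed by 0.67 and Rpl35a by 0.72, each with an SE of 0.32, and neither met it. The 3 members were also the only SOX2 partners on the key.

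Other cell types were looked for through their markers. Of 9 primitive endoderm markers 4 were named (Gata4, Gata6, Dab2 and Col4a1), and their summed level, in units of the 75th percentile, was 5.61 to 12.8 in fSOX2-Tg and 20.0 to 53.2 in fS248A-Tg. Dab2 was well above background on 4 of the 6 arrays and passed the filter through fS248A-Tg, where it was the brighter. Krt18 was the only 1 of 7 trophoblast markers with a name (1.97 to 4.13 in fSOX2-Tg and 3.80 to 8.98 in fS248A-Tg). These 5 names also came from the key, that is from genes listed as changed in this contrast, so that all 5 met the call as higher, beside 3.71% of all probes, is no evidence about the cell types. Of 12 pluripotency markers, Sox2 included, and 7 fibroblast markers, 0 were named, so the labelled cell type and the transgene could not be checked on the arrays. The paper examined both lines by Western blot and by staining, and reports SOX2 protein comparable to that of the parental cells. The named markers and the members share the contrast on which they were chosen. On the first scale, the endoderm sum within each line was lowest in replicate 3, where Mta3 and Krt18 were highest. On the deposited scale Mta3 in fS248A-Tg was highest in replicate 2 (13.30, against 13.26 in replicate 3). The part of the markers in the differences was not tested.

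Across the 6 arrays the levels of Dpy30 and Mta3 varied in the same direction and that of Eef1a1 ran opposite to both, as their selection on the same contrast builds in. Pearson r of the log2 levels was 0.798 between Dpy30 and Mta3 on the first scale and 0.900 on the deposited scale. It was -0.963 and -0.983 between Dpy30 and Eef1a1, and -0.732 and -0.880 between Eef1a1 and Mta3. The values share their arrays and the scaling of each array, and no test is given.

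Among 593 other named probes, those with a profile most like that of each member were also found. For Mta3 these were Trh, which encodes the precursor of thyrotropin-releasing hormone (r = 0.991), Lrrc28 (r = 0.980) and Gadd45a, a stress-induced gene (r = 0.979). For Dpy30 they were Cebpz (r = 0.995), Xlr5c (r = 0.987) and Rcbtb2 (r = 0.980). For Eef1a1 they were Dub1a, a deubiquitinating enzyme (r = 0.998), D630003M21Rik (r = 0.993) and S1pr4, a receptor for sphingosine 1-phosphate (r = 0.990). The differences of the genes like Eef1a1 (-1.40 for Dub1a, -1.31 for D630003M21Rik and -1.09 for S1pr4) lay within the SE of Eef1a1's own. Those of the genes like Mta3 were 1.29 for Trh, 0.50 for Lrrc28 and 0.81 for Gadd45a. For the genes like Dpy30 they were 1.28 for Cebpz, 2.07 for Xlr5c and 0.68 for Rcbtb2. Most of the named probes owe their name to the key and so were chosen, like the members, for a difference between the lines, which by itself gives a high r over these arrays.

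**Figure D4:**
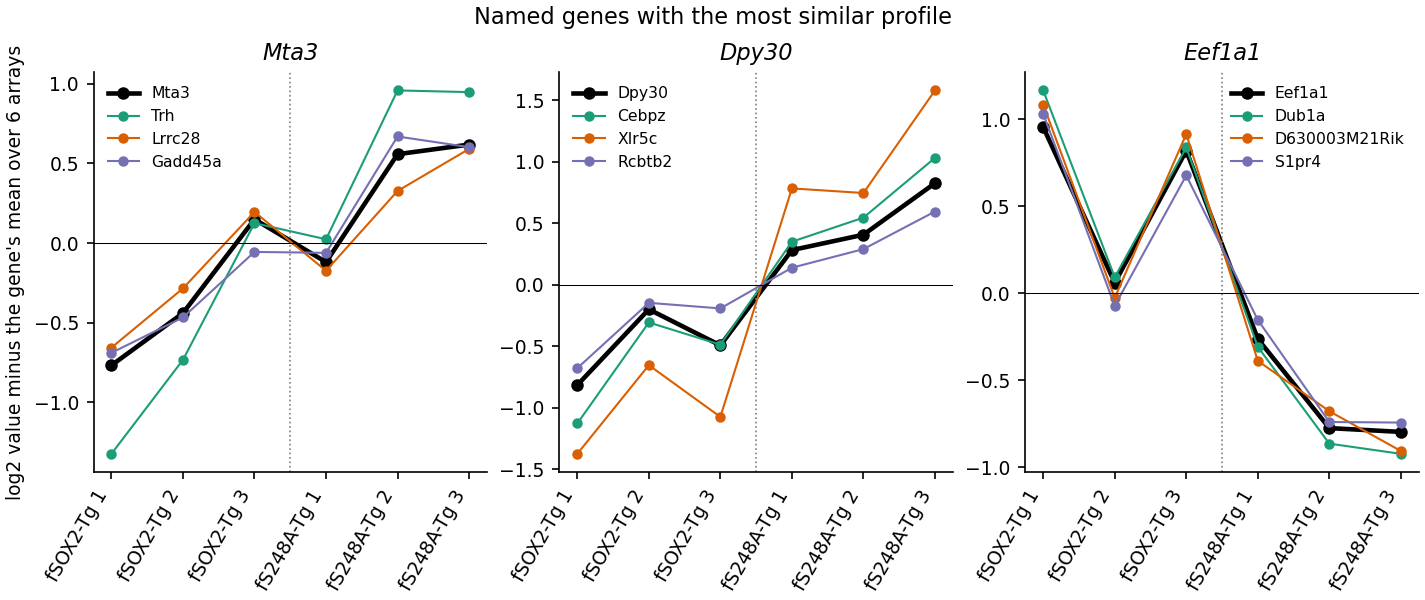
Log2 level of each member and of the 3 named genes with the highest Pearson r to it, relative to each gene's mean over the 6 arrays, with a dotted line between the lines and joins only to guide the eye. In Eef1a1 and the genes like it, fSOX2-Tg replicate 2 lies between its line and fS248A-Tg, and Xlr5c spans a wider range than Dpy30.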

How the data were processed

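Per the labels, mRNA of 3 cultures per line was labelled with Cy3 by random priming and hybridised to single-color arrays. The authors deposited, for each array, the intensity of every spot from Agilent Feature Extraction 11.0.1.1 and a table of log2 values for 23949 probes, whose normalization is not given in the sources used here. The published list of changed genes, which also holds the authors' fold changes and p-values, served as a name key and, with the list of SOX2 partners, to choose the members; none of its values is used as a result. Members and lists were chosen with earlier results of these data known.

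The intensity deposited as processed signal was taken to log2 minus the 75th percentile of 61194 spots outside controls (184 to 457 units over the arrays). Outlier spots were left out (49 to 102 per array) and spots of a probe averaged. Probes above background on all 3 arrays of a line were fitted in limma 3.58.1 (R 4.3.3) with line and replicate number as terms, checked on simulated data; 13 probes with an outlier spot were dropped. Between 66.0% and 83.1% of spots were well above background. The number of arrays limits the precision. The block follows the paired test that the study's legend names. Named genes are the members, list genes that could be named, and the 3 named genes most correlated with each member. Alternatives were a fit with no block, one with slide as the block, quantile normalization, limma on the deposited values, other filters, normexp (offset 50) on median signal, the methods' t-test and leaving out arrays. Figures and sequence searches used Python 3.11.15.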

Additional observations from a re-analysis of the deposited data

How the results depend on the processing

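The direction of Mta3, Dpy30 and Eef1a1 was the same under all 18 alternatives. All of them use arrays on which the members were selected, so a shared direction is in large part built in. Changing the block, the filter or the test on the fitted values leaves the estimate as it is and moves only its SE. Without the replicate block the differences were identical (0.71, 1.01 and -1.22), each on the same side of the call, and 834 probes were higher and 1131 lower. Deviations of same-numbered arrays from their line means correlated by 0.23, -0.24 and -0.0034 in replicates 1 to 3. Same-numbered arrays thus did not consistently deviate together, which does not show whether the cultures were handled in pairs. Slide as a block also changed no call. Mta3 alone came to meet the call under quantile normalization (0.75), limma on the deposited log2 values (0.75), normexp (0.74) and the methods' t-test on the fitted (0.71) or deposited (0.75) values. The t-test on the deposited values selected the members, so their call and direction there were fixed in advance. Limma on the deposited values reuses the same values, and quantile normalization nearly reproduced that fit. Quantile normalization gave 944 probes higher and 812 lower, and limma on the deposited values gave 943 and 811. The methods' t-test called 163 probes higher and 391 lower on the fitted values, and 320 and 344 on the deposited ones. The split moved from 733 higher and 1105 lower to 944 and 812 after quantile normalization and to 521 and 1389 without the filter on dim probes.

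With arrays left out, Mta3 ranged from 0.50 to 0.96, Dpy30 from 0.85 to 1.21 and Eef1a1 from -1.50 to -1.03. The calls of probes ranged from 356 to 2552 higher and from 421 to 3360 lower. The most came without replicate 2 of both lines, and 1921 and 1947 came without fSOX2-Tg replicate 2 alone. Between 0 and 53 probes passed the adjusted threshold. Where a single array was left out, no replicate block was fitted, and its line was left with a pair of arrays. With 3 cultures per line, a miss of the call does not show that a gene was unchanged, and the cause of these changes was not tested.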
